A study of Mus musculus with 6 samples.

Results

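The genes described here are those of the proteasome and of MHC class I antigen presentation in Treg cells of the mouse colon, the suppressive CD4 T cells marked by Foxp3. Members were chosen by gene symbol. All rows of the count table named as an alpha (Psma), beta (Psmb), ATPase (Psmc), other regulatory (Psmd), activator (Psme) or inhibitor (Psmf) proteasome gene followed by a number were taken, which gave 47 genes. Added to these were 7 named genes of class I presentation, B2m, H2-K1, H2-D1, Tap1, Tap2, Tapbp and Nlrc5. This made 54 of the 32090 genes in the table. The symbol pattern also takes Psmc3ip and Psme3ip1, which are named after proteins they bind and do not encode proteasome subunits, and they are described apart. Of the 54 genes, 53 passed the filter on low counts. The remaining gene, Psma8, the alpha subunit of testis proteasomes, had a count of 0 in all 6 libraries.

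As background, the proteasome is a barrel of alpha and beta rings in which proteins tagged with ubiquitin are cut into peptides. Its regulatory particle binds tagged proteins, removes the tag and unfolds the chain with a ring of ATPases. In most tissues the barrel has a chymotrypsin-like, a caspase-like and a trypsin-like cutting site, formed by Psmb5, Psmb6 and Psmb7. In lymphoid cells and under interferon-gamma these subunits are replaced by Psmb8, Psmb9 and Psmb10, which gives the immunoproteasome. The sites are named below after the activity of the constitutive subunit. Peptides are carried into the endoplasmic reticulum by the Tap1-Tap2 transporter and are loaded with the help of tapasin (Tapbp) onto class I heavy chains paired with beta-2-microglobulin (B2m).

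RNA of sorted live CD45+ CD4+ Foxp3+ cells was measured by bulk sequencing in 3 KO and 3 WT libraries. KO mice had the genotype Il23rflflFoxp3YFP-Cre, in which Cre expressed from Foxp3 acts on floxed alleles of the interleukin-23 receptor gene. WT mice had the genotype Foxp3YFP-Cre, so that both groups carried the YFP-tagged Cre, and all mice were C57/BL6 and received no treatment. The age of the mice is not given in the sources used here. Each library was a pool of cells from at least 5 mice, and p-values measure the spread between these pools. Within each group, values are listed below in the order of libraries 1, 2 and 3.

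Total estimated counts lay between 9680503 and 20654340 per library, and the members took between 0.749% and 0.964% of them. Il23r in the library labelled KO1 (18.4 CPM, counts relative to the scaled library size) lay inside the WT range of 13.6 to 38.3 CPM, while the other KO libraries had 4.99 and 8.96 CPM. Xist, an RNA made from an inactive X chromosome, lay between 1182 and 3472 CPM in KO and between 0 and 0.284 CPM in WT, so genotype and the sex of the mice cannot be told apart. The library labelled KO1 and WT1 shared a sort batch (A), WT2 and WT3 shared another, and KO2 and KO3 had a batch each, so that batch A alone gives a KO value beside a WT value. The RNA integrity number was 5 in WT2 and lay between 7.9 and 8.8 in the other libraries. KO2 and KO3 were the closest libraries, with a Pearson r of 0.974 across genes, which are not independent replicates, and their counts still differed by more than sampling noise (chi-square per degree of freedom 14.6, against 81.7 to 146 for the other pairs within a group). Treg markers summed to between 7321 and 8121 CPM in KO and between 7592 and 8196 CPM in WT. Markers of other cells were also present. The 10 macrophage and monocyte markers summed to between 331 and 662 CPM in KO and between 235 and 346 CPM in WT, and all 10 had a positive log2 fold change. The 7 dendritic cell markers summed to between 102 and 135 CPM in KO and between 47.7 and 73.3 CPM in WT, with Clec9a at 0 in all KO libraries and Flt3 at no more than 0.206 CPM anywhere. For epithelial cells the 9 markers in the table summed to between 58.2 and 166 CPM in KO and between 16.1 and 58.7 CPM in WT. Fcgbp and Clca1 carried the higher KO sum, with means of 33.8 and 39.9 CPM in KO and 0.0343 and 0.948 CPM in WT, while Epcam and Cdh1 had negative log2 fold changes of -0.89 and -1.36. The 7 B and plasma cell markers summed to between 241 and 321 CPM in KO and between 169 and 751 CPM in WT. The CD8 T and NK cell markers summed to at most 6.81 CPM, and Ncr1 was at 0 in every library. Stromal and endothelial markers summed to between 45.4 and 60.2 CPM in KO and between 53.3 and 97.9 CPM in WT. Of the 5 tested among them, 0 had a positive log2 fold change. Proteasome and class I genes are active in all of these cells, and the part of such RNA in the values below was not tested.

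No proteasome or class I gene passed the test between genotypes. At an adjusted p of 0.05 (edgeR quasi-likelihood test, Benjamini-Hochberg over 12557 genes), 0 of 53 were higher in KO and 0 were lower, beside a background of 0.0159% and 0.00796% of all genes tested, or 0.0239% in both directions. By limma-voom, 0 of 53 were called, beside only 2 of all 12557 genes. DESeq2 also called 0 of 53, beside 1.89% of all genes. Likewise, 0 of 53 in the authors' deposited table had an adjusted p under 0.05, beside 2.41% of all genes. The smallest adjusted p in that table was 0.107, for Psmd1. An unadjusted edgeR p under 0.05 was reached by 5 of 53 (Psmb3, Psmb4, Psmb8, Psmc4 and Tap1), a share of 9.43% beside 9.37% of all genes. All 5 had higher means in KO. In 4 genes every KO library lay above every WT library (Psmb1, Psmb4, Psmb8 and Psmc4), and in 0 genes every KO library lay below, against 9.68% and 8.01% of all genes. Without the library labelled KO1, the first of these counts was 16 of 53 (30.2%), against 19.0% of all genes in the same 2 against 3 libraries. The log2 fold change was positive in 33 of 53 (62.3%, against 47.4% of all genes), and its median was 0.15, against -0.04 for all genes tested. In sort batch A, 29 of 53 had a positive difference between the library labelled KO1 and WT1, with a median of 0.05. The share and median over all genes were not taken for this pair, so these values have no background beside them. Because the libraries are bulk samples, fewer cells of a type and less RNA per cell cannot be told apart.

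**Figure D1:**
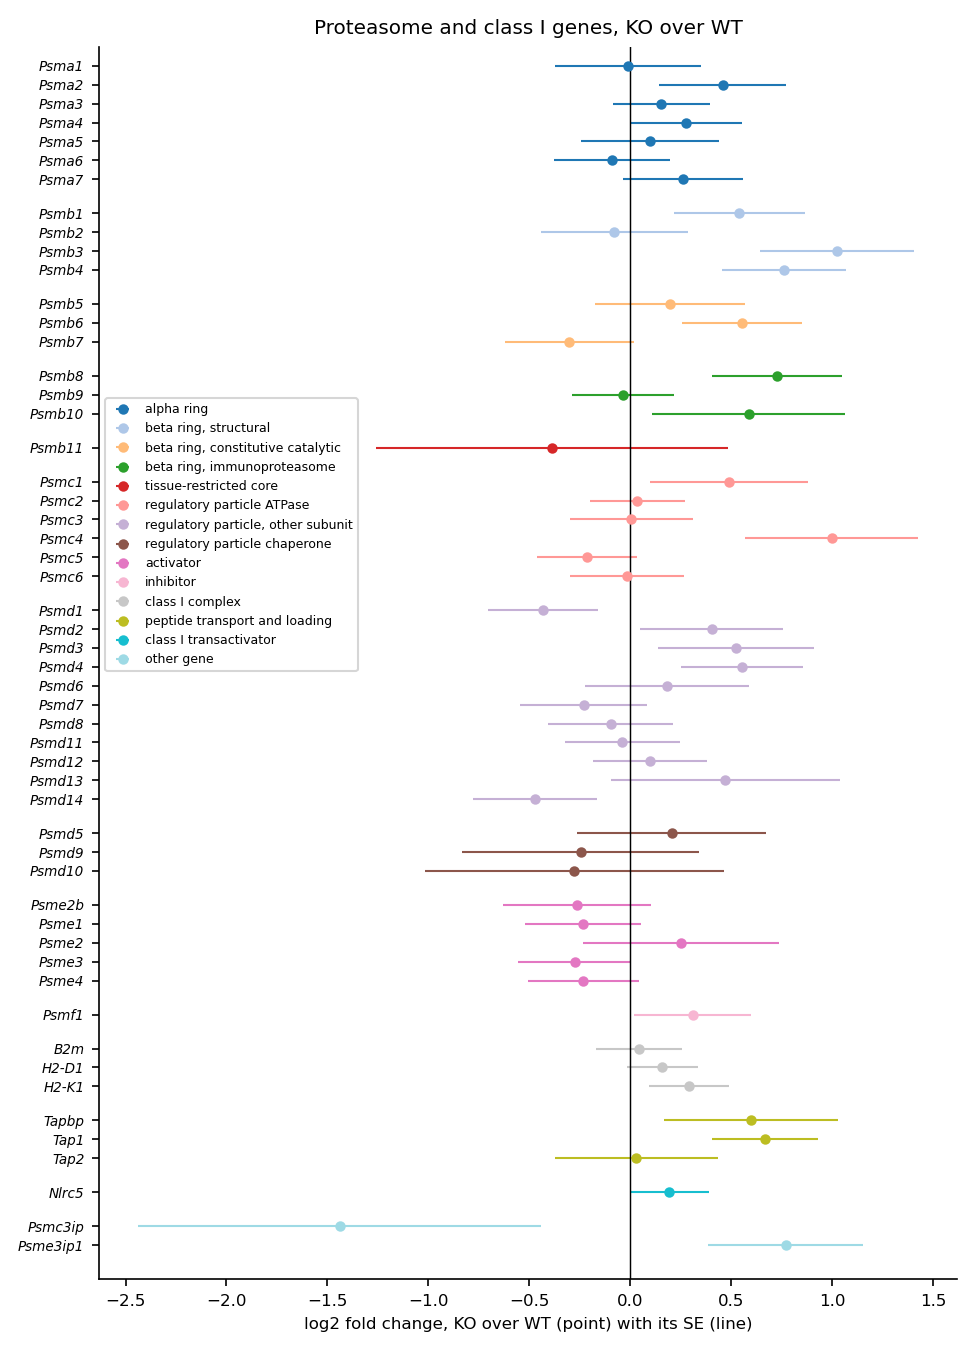
Log2 fold change, KO over WT, of the 53 tested genes (point) with its standard error (line), 3 libraries per group, grouped and coloured by role. Psmb3 (1.02) and Psmc4 (0.996) lie farthest to the right and Psmc3ip (-1.44) farthest to the left, and none passed the adjusted threshold.

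The cutting sites are the part of the barrel where the immunoproteasome and the constitutive proteasome differ. Psmb8 forms the chymotrypsin-like site of the immunoproteasome. It was measured at 72.9, 79.6 and 94.8 CPM in KO, against 49.9, 29.4 and 69.9 CPM in WT. Every KO value lay above every WT value, though the lowest KO and the highest WT library were close. Its log2 fold change was 0.73 (SE 0.32, adjusted p 0.531) and 0.55 within batch A. Psmb9, which takes the place of Psmb6, had 56.1, 76.5 and 75.9 CPM in KO and 80.1, 55.4 and 78.2 CPM in WT. These ranges lay on top of each other, with a log2 fold change of -0.04 (SE 0.25, adjusted p 0.974). Psmb10, at the trypsin-like site, split each group, with 16.6, 47.4 and 42.4 CPM in KO and 16.5, 36.8 and 17.7 CPM in WT. The library labelled KO1 was near WT1 and WT3, while KO2 and KO3 lay above WT2, and the log2 fold change was 0.59 (SE 0.48, adjusted p 0.723). Within batch A the log2 difference was -0.51 for Psmb9 and 0.01 for Psmb10.

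Of their constitutive counterparts, Psmb5 had 22.8, 18.8 and 28.0 CPM in KO and 21.7, 14.8 and 24.2 CPM in WT, overlapping ranges with a log2 fold change of 0.19 (SE 0.37, adjusted p 0.904). Psmb6 reached 46.2, 64.5 and 71.4 CPM in KO, against 43.1, 29.5 and 51.5 CPM in WT. KO2 and KO3 lay above all WT libraries and the library labelled KO1 lay among them, with a log2 fold change of 0.55 (SE 0.30, adjusted p 0.587). For Psmb7 the levels were 41.5, 27.0 and 33.5 CPM in KO and 31.0, 39.3 and 55.6 CPM in WT, with overlap and a log2 fold change of -0.30 (SE 0.32, adjusted p 0.796). Within batch A the log2 differences of Psmb5, Psmb6 and Psmb7 were 0.07, 0.10 and 0.42, so that Psmb7 changed its sign there. Neither group of catalytic subunits moved as 1 set.

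**Figure D2:**
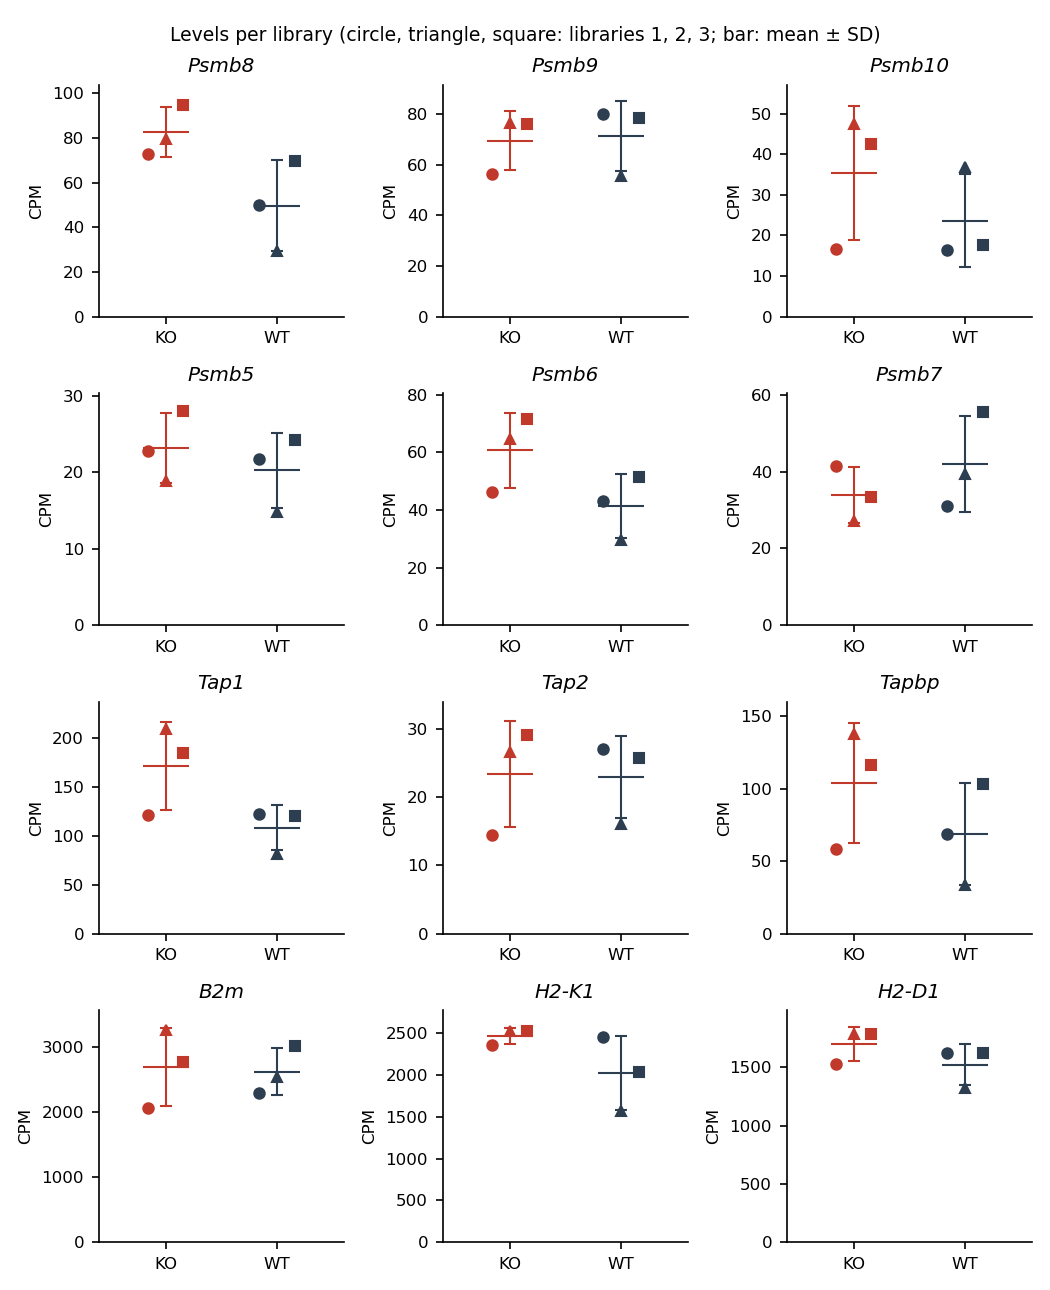
CPM on linear axes in each KO (left) and WT (right) library for the 6 catalytic subunits, the transport and loading genes and the class I chains. Circles, triangles and squares are libraries 1, 2 and 3, and bars give the mean and SD (n = 3). Psmb8 is the only gene drawn in which the groups do not overlap. The library labelled KO1 (circle) is the lowest KO library for every gene drawn except Psmb5 and Psmb7.

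At each site, the RNA of the immunoproteasome subunit was divided by that of the constitutive subunit in the same library, each as CPM per kilobase of transcript. This ratio does not depend on library scaling. It is a ratio of RNA, and which subunits sit in assembled proteasomes was not measured. At the chymotrypsin-like site the ratio Psmb8 over Psmb5 was 1.77, 2.34 and 1.87 in KO, against 1.27, 1.10 and 1.59 in WT. All KO ratios were above all WT ratios, by 0.60 on the log2 scale and by 0.48 in batch A. At the caspase-like site the order was turned round. Psmb9 over Psmb6 was 0.717, 0.700 and 0.627 in KO, against 1.10, 1.11 and 0.897 in WT, and all KO ratios were below all WT ratios, with a difference of -0.60 on the log2 scale and -0.61 in batch A. The Psmb9 level itself was near equal in the groups (mean 69.5 ± 11.6 CPM in KO and 71.2 ± 13.7 CPM in WT, SD, n = 3 each), and Psmb6 had the higher mean in KO (60.7 ± 13.0 CPM, against 41.4 ± 11.1 CPM in WT). At the trypsin-like site, Psmb10 over Psmb7 was 0.354, 1.55 and 1.12 in KO and 0.471, 0.829 and 0.282 in WT, with overlap and a difference of 0.83 on the log2 scale, but -0.41 in batch A. With 3 libraries per group, no exact two-sided permutation test can give a p below 0.1, and none was run on the ratios.

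Averaged over the 3 sites, the log2 ratio of immunoproteasome to constitutive levels (CPM, not per length) was 0.66 ± 0.42 in KO and 0.38 ± 0.22 in WT (SD, n = 3 each), a difference of 0.28 that is smaller than the SD within KO. It was 0.21 in the library labelled KO1, 1.04 in KO2 and 0.73 in KO3, against 0.39, 0.60 and 0.16 in WT1, WT2 and WT3. Without the library labelled KO1 the difference was 0.50, and without KO2 it was 0.086. Within batch A it was -0.18. The 3 sites did not move together, and their mean gives no difference beyond the spread of the libraries.

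**Figure D3:**
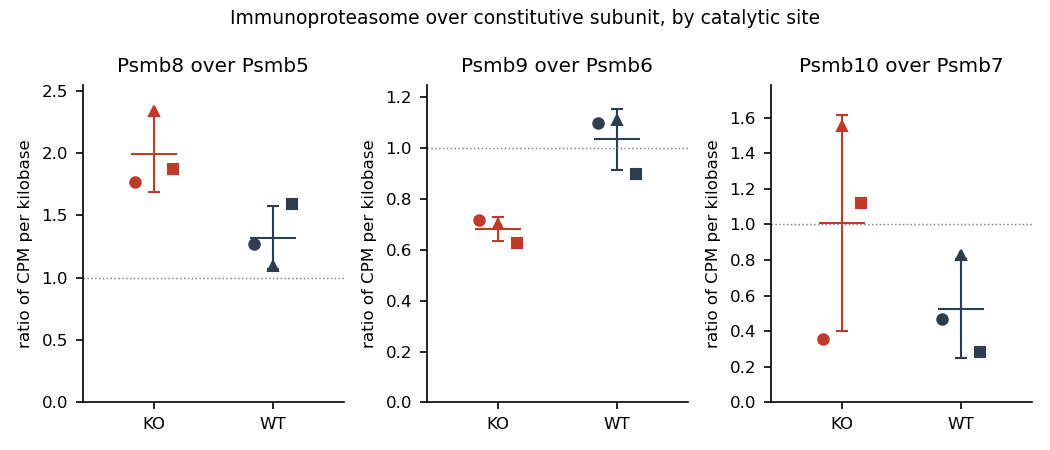
Ratio of immunoproteasome to constitutive subunit (CPM per kilobase over CPM per kilobase, linear axes) at each cutting site in KO (left) and WT (right) libraries 1, 2 and 3 (circle, triangle, square), with mean and SD and a dotted line at a ratio of 1. KO lies above WT for Psmb8 over Psmb5, below WT for Psmb9 over Psmb6, and overlaps WT for Psmb10 over Psmb7.

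The promoters of these genes are shown because immunoproteasome genes are known targets of interferon-induced factors, constitutive genes of Nfe2l1 and NF-Y, and because Psmb9 and Tap1 share a promoter. Windows of 300 bases (250 before and 50 after the start in RefSeq, GRCm38.p6) were found for 45 of the 54 genes, and motifs were searched on both strands. The window of Psmb8 (chr17:34197945-34198244, + strand) held a match to the letters of a STAT site (TTCNNNGAA), in capitals. That of Psmb9 (chr17:34187281-34187580, - strand) shared 275 of its bases with the Tap1 window on the other strand, and its capitals mark the CCAAT box of NF-Y, read here from the opposite strand. In the windows of Psmb5 (chr14:54617946-54618245, - strand) and Psmb6 (chr11:70525107-70525406, + strand), the capitals mark matches to the antioxidant response element read by Nfe2l1 and related factors (TGACNNNGC). B2m (chr2:122147437-122147736, + strand) held in capitals an interferon-stimulated response element (GAAA, any 2 bases, GAAA), overlapping matches on the 2 strands to an NF-kB site (GGGA, any 4 bases, CC) and a CCAAT box. The window of Psmb10 held none of the 6 motifs searched and is not printed.
Psmb8: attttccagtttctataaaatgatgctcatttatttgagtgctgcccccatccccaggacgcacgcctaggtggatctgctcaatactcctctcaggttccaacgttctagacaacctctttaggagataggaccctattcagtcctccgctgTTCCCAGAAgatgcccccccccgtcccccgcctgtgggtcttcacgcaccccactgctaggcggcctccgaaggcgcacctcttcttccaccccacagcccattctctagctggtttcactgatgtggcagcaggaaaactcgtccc
Psmb9: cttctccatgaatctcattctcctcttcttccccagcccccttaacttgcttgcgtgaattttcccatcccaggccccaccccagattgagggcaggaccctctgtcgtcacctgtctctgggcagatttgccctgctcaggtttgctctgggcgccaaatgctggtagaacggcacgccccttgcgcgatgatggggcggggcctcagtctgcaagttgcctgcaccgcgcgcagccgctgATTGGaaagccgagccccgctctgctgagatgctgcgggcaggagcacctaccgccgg
Psmb5: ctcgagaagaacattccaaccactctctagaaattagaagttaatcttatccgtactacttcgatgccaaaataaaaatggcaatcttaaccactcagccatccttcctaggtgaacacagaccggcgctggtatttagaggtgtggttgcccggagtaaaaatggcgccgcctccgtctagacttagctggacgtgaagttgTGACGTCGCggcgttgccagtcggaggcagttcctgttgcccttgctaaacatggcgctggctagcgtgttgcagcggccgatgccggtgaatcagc
Psmb6: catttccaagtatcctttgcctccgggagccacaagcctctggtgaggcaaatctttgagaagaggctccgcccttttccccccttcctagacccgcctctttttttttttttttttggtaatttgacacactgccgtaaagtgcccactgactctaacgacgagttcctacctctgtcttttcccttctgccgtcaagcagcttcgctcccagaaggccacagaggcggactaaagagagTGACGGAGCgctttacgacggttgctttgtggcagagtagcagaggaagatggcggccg
B2m: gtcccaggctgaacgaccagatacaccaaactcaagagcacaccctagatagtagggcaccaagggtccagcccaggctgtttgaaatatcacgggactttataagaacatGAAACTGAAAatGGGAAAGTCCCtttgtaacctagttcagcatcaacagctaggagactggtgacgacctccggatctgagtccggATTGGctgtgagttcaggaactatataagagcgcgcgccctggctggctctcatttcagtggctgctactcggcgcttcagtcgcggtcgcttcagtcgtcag

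Among the 45 genes with a window, the interferon element occurred in 5 (B2m, Psmb3, Psmd4, Psmd9 and Psme1), against 3.44% of 32851 promoter windows. The STAT letters occurred in 2 (Psmb8 and Psmd2), against 8.30% of windows. The antioxidant element was found in 7, including Psmb5, Psmb6 and H2-K1, against 12.4%, and the NF-kB letters in 15, against 20.7%. CCAAT occurred in 21, against 37.4%, and the cAMP response element (TGACGTCA) in 0, against 1.79%. Some genes have more than 1 window, and a match describes letters only. On the chromosome, Psmb9, Tap1, Psmb8 and Tap2 follow each other without another protein-coding gene between them in the MHC on chromosome 17. Within this run, the 2 genes with an unadjusted p under 0.05 (Tap1 and Psmb8) lie between Psmb9 and Tap2, whose log2 fold changes were -0.04 and 0.03.

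The structural beta subunits complete the ring without cutting, and Psmb3 among them had the largest positive estimate of all 53 genes. It was measured at 43.2, 68.1 and 69.3 CPM in KO, against 25.7, 17.6 and 45.4 CPM in WT. KO2 and KO3 lay well above WT, and the library labelled KO1 lay below WT3, so the groups overlapped at a log2 fold change of 1.02 (SE 0.38, adjusted p 0.488). Psmb4 had 75.5, 66.0 and 63.5 CPM in KO and 55.5, 25.7 and 39.9 CPM in WT, without overlap, at 0.76 (SE 0.31, adjusted p 0.505). Psmb1 held 53.1, 49.2 and 48.2 CPM in KO and 21.3, 48.1 and 34.2 CPM in WT. Its KO libraries were close together and all above WT, though WT2 came close to them, at a log2 fold change of 0.54 (SE 0.33, adjusted p 0.624). Psmb2, the fourth of them, had 31.7, 29.4 and 33.0 CPM in KO and 19.0, 33.4 and 47.1 CPM in WT and a log2 fold change of -0.08. Within batch A the log2 differences of Psmb1, Psmb2, Psmb3 and Psmb4 were 1.31, 0.74, 0.74 and 0.44.

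The alpha ring gates the barrel, and its estimates were small. Of its 7 tested genes (Psma1 to Psma7), 5 had a positive log2 fold change, the range was -0.09 (Psma6) to 0.46 (Psma2), and 0 had an unadjusted p under 0.05. Psma2 had 44.4, 93.1 and 82.4 CPM in KO and 42.2, 56.7 and 61.1 CPM in WT, with the library labelled KO1 at the low end of WT. Psmb11, the catalytic subunit of thymic cortical epithelium, was low, at 1.02, 1.339 and 0.940 CPM in KO and 1.23, 1.75 and 1.36 CPM in WT, without a difference beyond its error (log2 fold change -0.39, SE 0.87, adjusted p 0.919).

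In the regulatory particle, estimates went both ways. Among the 6 ATPases, which unfold the substrate, 4 had a positive estimate and only Psmc4 an unadjusted p under 0.05. Psmc4 was at 35.1, 46.1 and 37.3 CPM in KO, against 33.5, 13.6 and 12.4 CPM in WT, with a log2 fold change of 0.996 (SE 0.43, adjusted p 0.522). WT1 was close to the KO values and WT2 and WT3 were far below, and within batch A the log2 difference was 0.07. The other 5 ATPases ranged from -0.22 (Psmc5) to 0.49 (Psmc1). Of the 11 other subunits, 6 had a positive estimate, led by Psmd4, a ubiquitin receptor (0.55), and Psmd3 (0.52). The lowest estimates were those of Psmd14 and Psmd1. Psmd14, the enzyme that strips ubiquitin chains from substrates, had 33.8, 24.1 and 28.6 CPM in KO and 32.6, 51.5 and 36.2 CPM in WT (log2 fold change -0.47, SE 0.31, adjusted p 0.650). Psmd1, a scaffold subunit, had 45.7, 41.5 and 42.1 CPM in KO and 65.1, 68.5 and 41.3 CPM in WT. Its KO values were close together, above WT3 and below WT1 and WT2, at -0.43 (SE 0.27, adjusted p 0.635). The 3 chaperones that assemble the particle (Psmd5, Psmd9 and Psmd10) were low and scattered, with log2 fold changes of 0.20, -0.25 and -0.28 and standard errors of at least 0.47. Psmd10 lies on the X chromosome and had 15.3, 4.20 and 6.14 CPM in KO and 8.30, 3.70 and 19.1 CPM in WT.

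The activators open the barrel in place of the regulatory particle, and 4 of 5 had a negative estimate. Psme1, which forms an interferon-induced cap with Psme2, was at 124, 104 and 120.4 CPM in KO and 163, 79.4 and 168 CPM in WT (log2 fold change -0.24, SE 0.29, adjusted p 0.826). WT2 was the lowest library for both partners. Psme2 had 57.5, 86.5 and 85.3 CPM in KO and 97.9, 19.5 and 75.2 CPM in WT, and its estimate of 0.25 (SE 0.48, adjusted p 0.906) became -0.19 without WT2. Part of its reads may be shared with its near-identical copy Psme2b (17.6, 23.97 and 24.3 CPM in KO, 17.7, 32.7 and 28.6 CPM in WT), so their separate values are uncertain. Psme3, a nuclear activator, had 61.3, 51.3 and 51.9 CPM in KO and 55.6, 52.0 and 91.3 CPM in WT (log2 fold change -0.28, SE 0.28, adjusted p 0.786). Psme4 had an estimate of -0.23 and the inhibitor Psmf1 of 0.31, and neither passed the threshold.

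Among the class I genes, Tap1 and Tapbp had the largest estimates and Tap2 and B2m the smallest. Tap1 was measured at 122, 209 and 185 CPM in KO, against 123, 81.5 and 120.4 CPM in WT. KO2 and KO3 lay above all WT libraries, and the library labelled KO1 was level with WT1 and WT3, at a log2 fold change of 0.67 (SE 0.26, adjusted p 0.505) and -0.01 within batch A. Its partner Tap2 had 14.5, 26.6 and 29.1 CPM in KO and 27.0, 16.0 and 25.7 CPM in WT, near equal on average (log2 fold change 0.03, SE 0.40, adjusted p 0.989). Tapbp, which holds empty class I molecules at the transporter, had 58.1, 138 and 116 CPM in KO and 68.9, 33.5 and 103 CPM in WT. Again KO2 and KO3 were high and the library labelled KO1 was among the WT values, at 0.60 (SE 0.43, adjusted p 0.685).

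B2m, the light chain, had 2055, 3251 and 2766 CPM in KO and 2295, 2538 and 3002 CPM in WT, with overlap and a log2 fold change of 0.04 (SE 0.21, adjusted p 0.964). H2-K1 was at 2357, 2521 and 2520.5 CPM in KO and 2449, 1569 and 2034 CPM in WT. Its KO libraries were close together, WT1 lay among them, and WT2 and WT3 were lower, at 0.29 (SE 0.20, adjusted p 0.667). H2-D1 had 1525, 1781 and 1785 CPM in KO and 1621, 1317 and 1624 CPM in WT, at 0.16 (SE 0.18, adjusted p 0.808). Class I heavy chains have close paralogs in the table, among them H2-Q10 with 892, 829 and 796 CPM in KO and 901, 614 and 419.7 CPM in WT, so reads may be split between them and single heavy-chain values are uncertain. Nlrc5, the transactivator of class I genes, had 143, 175 and 163 CPM in KO and 159, 135 and 127 CPM in WT (log2 fold change 0.19, SE 0.19, adjusted p 0.786). Within batch A all 7 class I genes had a negative difference. It was small for Tap1 (-0.01), H2-K1 (-0.06) and H2-D1 (-0.09). For Nlrc5, B2m, Tapbp and Tap2 it was -0.15, -0.16, -0.25 and -0.89. Batch A holds a single library of each genotype, and the share of negative differences over all genes was not taken. These values therefore cannot show whether the positive estimates of the 3 against 3 comparison fail within a batch. The library labelled KO1 was the lowest KO library for all 7. It also had the highest sums of macrophage markers (662 CPM) and dendritic cell markers (135 CPM) of the 6 libraries. These values are from a single library, and the part of such RNA in the class I values was not tested. Over the groups, the macrophage sums overlapped and the dendritic cell sums did not.

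Levels can be compared between genes only per length, and were taken as CPM per kilobase of the main coding transcript (GENCODE M21) for 53 of the 54 genes. The class I chains stood far above all others. B2m had 3129 ± 699 in KO and 3037 ± 418 in WT (SD, n = 3 each), followed by H2-K1 with 1523 ± 58.5 in KO and 1246 ± 272 in WT and H2-D1 with 807 ± 70.9 in KO and 723 ± 84.0 in WT. Within either group these 3 do not overlap in mean and SD. Next came Psme1 (104 ± 9.60 in KO, 123 ± 44.7 in WT), Psma7 (84.6 ± 11.5 in KO, 70.6 ± 26.7 in WT) and Psme2 (79.4 ± 17.01 in KO, 66.8 ± 41.9 in WT), which in WT do not differ beyond their SD. The subunits of the core and of the regulatory particle spread widely, from 77.6 for Psma7 to 5.16 for Psmd13 as means over all libraries, and the tissue-restricted Psmb11 and Psma8 lay lower still. The class medians over all libraries were 34.5 per kilobase for the alpha ring, 41.8 for the structural beta subunits, 32.7 for the constitutive and 40.6 for the immunoproteasome catalytic subunits, 23.1 for the ATPases and 17.4 for the other regulatory subunits. Of the transporter pair, Tap1 (58.1 ± 15.2 in KO, 36.6 ± 7.84 in WT) was well above Tap2 (6.80 ± 2.26 in KO, 6.65 ± 1.74 in WT) in every library. At the chymotrypsin-like site, Psmb8 (50.7 ± 6.87 in KO, 30.5 ± 12.4 in WT) was above Psmb5 (25.8 ± 5.11 in KO, 22.5 ± 5.43 in WT) in all 6 libraries. At the caspase-like site, Psmb9 (51.4 ± 8.57 in KO, 52.7 ± 10.2 in WT) was below Psmb6 (76.1 ± 16.3 in KO, 51.8 ± 13.9 in WT) in all KO libraries and in WT3, and above it in WT1 and WT2. The lowest tested gene was Psmb11, at 0.259 ± 0.0494 in KO and 0.340 ± 0.0637 in WT.

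**Figure D4:**
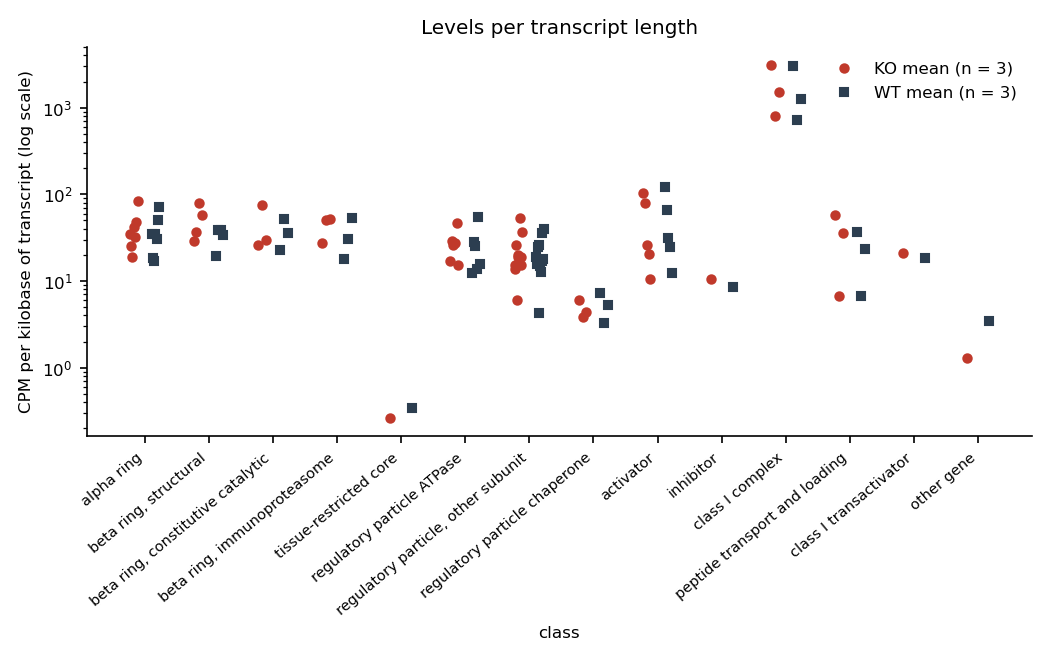
Mean CPM per kilobase of transcript (log axis) of each gene with a length, by role, in KO (circles) and WT (squares), n = 3 libraries each. Psma8, at 0, is not drawn. B2m, H2-K1 and H2-D1 lie between 723 and 3129, far above the proteasome subunits, and Psmb11 lies lowest, at 0.259 in KO and 0.340 in WT.

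The libraries of the KO group were more alike than those of the WT group. The coefficient of variation over 3 libraries had a median of 16.9% in KO and 29.4% in WT, and it was lower in KO for 41 of 53 genes. Across all genes, too, Pearson r was higher between KO libraries (0.88 to 0.97) than between WT libraries (0.83 to 0.85). Neither this coefficient nor the counts that follow were taken over all genes. WT2, the library of low RNA integrity, was the lowest of the 6 for 21 genes and the highest for 13. The library labelled KO1 was the lowest for 6 and the highest for 6, and KO2 was the highest for 12. Summed over the 45 proteasome genes other than Psmc3ip and Psme3ip1, the level was 1856, 2103 and 2121 CPM in KO and 1803, 1738 and 1983 CPM in WT, so the library labelled KO1 lay among the WT libraries.

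**Figure D5:**
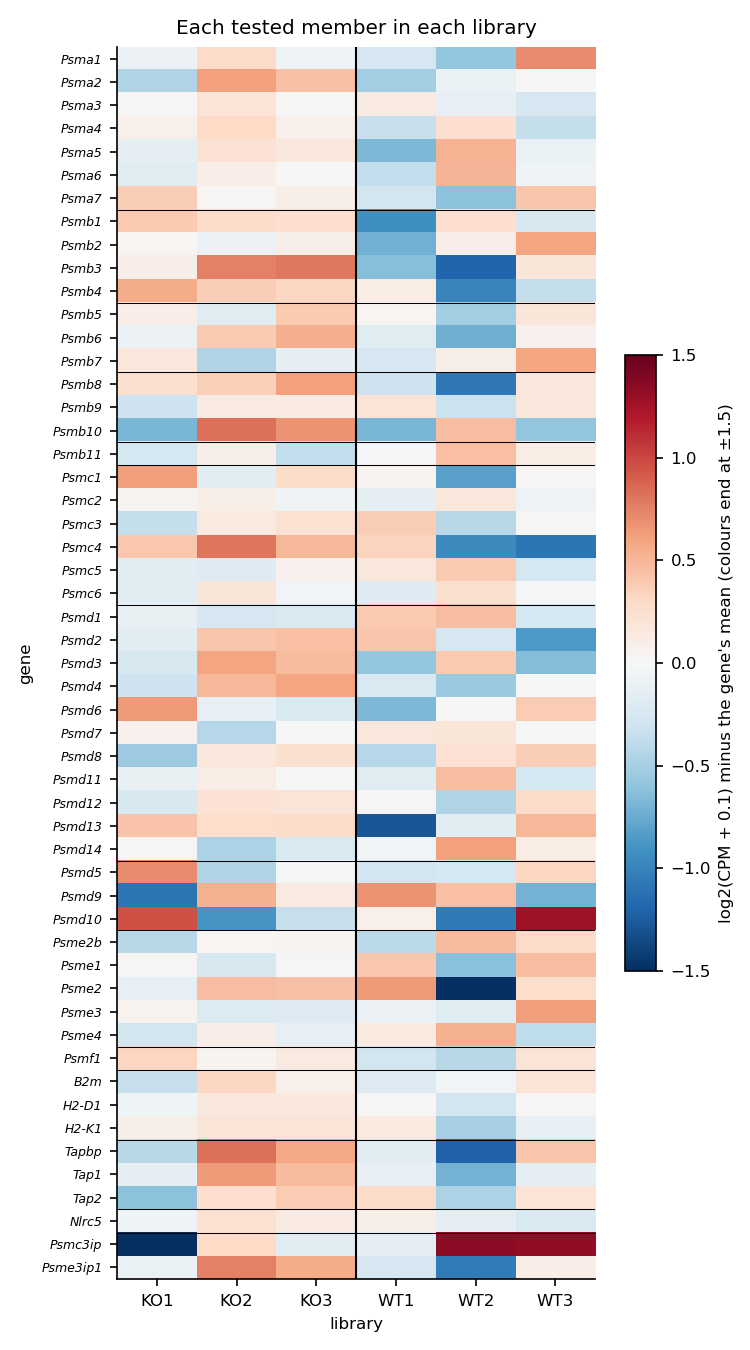
Each tested gene (rows, by role) in each library (KO left of the line, WT right), as log2(CPM + 0.1) minus the gene's mean over the 6 libraries. Colours end at 1.5 in both directions, and Psmc3ip and, in WT2, Psme2 go past the scale. KO2 and KO3 have much the same colours, and WT2 holds many of the darkest cells, in both directions.

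The 2 genes that the symbol pattern takes without being subunits went opposite ways. Psmc3ip, a partner of meiotic recombinases, was low, with 0.267, 2.74 and 1.94 CPM in KO and 1.98, 5.76 and 5.67 CPM in WT (log2 fold change -1.44, SE 0.999, adjusted p 0.672). Psme3ip1, a protein that binds Psme3, had 27.8, 50.3 and 43.8 CPM in KO and 25.0, 14.4 and 31.9 CPM in WT (log2 fold change 0.77, SE 0.38, adjusted p 0.565). A further 5 rows for proteasome pseudogenes were at 0 in all libraries. In RefSeq, 10 of the 54 genes overlap another protein-coding gene, among them B2m with Patl2, Psme1 with Emc9, Psmd1 with Htr2b and Psmc3ip with Mlx. This overlap is of whole gene spans, and exons were not compared. Where exons of such a pair overlap, reads may not be told apart without knowledge of strand.

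Genes that work around the proteasome were taken in as lists, and edgeR called 0 of 71 tested genes in them. An unadjusted p under 0.05 was reached by 4 of 71, beside 9.37% of all genes, and DESeq2 called 3 (H2-M3, Irf9 and Nfyb), beside 1.89% of all genes. Of 7 assembly genes, a list that also holds the subunits Adrm1 and Sem1, 5 had a positive estimate (median 0.18). The assembly chaperone Psmg1 had 2.36, 0.669 and 2.57 CPM in KO and 2.36, 1.23 and 11.7 CPM in WT, and Sem1 had 23.4, 22.8 and 23.8 CPM in KO and 24.2, 10.6 and 17.8 CPM in WT. Of 9 ubiquitin receptors, deubiquitinases and regulators at the proteasome, 2 had a positive estimate and the median was -0.37, against -0.04 for all genes. Among them, the shuttle protein Ubqln1 had 74.3, 74.0 and 75.0 CPM in KO and 74.9, 118 and 114 CPM in WT (-0.46, adjusted p 0.569), and Ecpas, a scaffold that binds the proteasome, had 88.6, 87.7 and 80.8 CPM in KO and 89.2, 140.5 and 103 CPM in WT (-0.37, adjusted p 0.630). WT2 was the highest library for both. The 6 ubiquitin and E1 genes had 4 positive estimates. Rps27a, a ubiquitin and ribosomal fusion gene, was at 187, 298 and 243 CPM in KO, all above the 127, 166 and 175 CPM of WT (0.64, adjusted p 0.487), while the ubiquitin-activating enzyme Uba6 had 60.4, 47.5 and 42.6 CPM in KO and 55.5, 109 and 67.7 CPM in WT (-0.62, adjusted p 0.551).

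For peptide trimming and loading, 3 of 11 genes had a positive estimate (median -0.13). Erap1, which trims peptides in the endoplasmic reticulum, was at 30.4, 36.6 and 34.4 CPM in KO, below the 45.8, 76.4 and 37.1 CPM of WT in every library (-0.65, adjusted p 0.557). The aminopeptidase Lnpep, with 377, 429 and 364 CPM in KO and 439, 748 and 459 CPM in WT, was also lower in each KO library (-0.49, adjusted p 0.548). In both genes WT2 was far above WT1 and WT3. Of 12 other class I genes tested, 9 had a positive estimate (median 0.30). H2-M3, which presents formylated peptides, was at 31.8, 47.6 and 38.4 CPM in KO, all above the 18.2, 9.46 and 19.7 CPM of WT. Its log2 fold change of 1.31 (SE 0.38) had an adjusted p of 0.433 in edgeR and of 0.0449 in DESeq2. H2-Q2 was low, with 0.356, 0.608 and 1.07 CPM in KO and 1.04, 5.55 and 1.02 CPM in WT.

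Of 14 regulators of class I and immunoproteasome genes, 7 had a positive estimate (median 0.03). Irf9, the DNA-binding part of the factor complex downstream of type I interferon, was at 66.4, 69.6 and 70.7 CPM in KO, all well above the 37.6, 31.2 and 36.1 CPM of WT. Its log2 fold change was 0.98 (SE 0.23), with an adjusted p of 0.387 in edgeR and 0.00242 in DESeq2. Within batch A the log2 differences of H2-M3 and Irf9 were 0.80 and 0.82. The NF-kB subunit Rela had 107, 145 and 138 CPM in KO and 123, 77.4 and 60.0 CPM in WT (0.58, adjusted p 0.556). Of 8 regulators of the constitutive genes, 5 had a positive estimate. Nfyb, a subunit of the CCAAT-binding factor, was at 13.5, 12.2 and 14.0 CPM in KO, all below the 23.7, 41.7 and 27.7 CPM of WT, with a log2 fold change of -1.22 (SE 0.37) and an adjusted p of 0.436 in edgeR and 0.0299 in DESeq2 (-0.80 within batch A). Nfe2l1, the factor that raises proteasome genes when the proteasome is impaired, had 66.5, 78.5 and 83.1 CPM in KO, below the 90.0, 105 and 116 CPM of WT (-0.45, adjusted p 0.549). The 4 interferon receptor genes had 3 positive estimates, with Ifngr2 at 48.5, 49.0 and 41.5 CPM in KO and 30.3, 15.2 and 46.1 CPM in WT and Ifnar1 at 319, 327 and 301 CPM in KO and 350.4, 242 and 195 CPM in WT.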

How the data were processed

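Per the labels' protocols, RNA from the sorted cells was amplified with the Ovation RNASeq System V2, a step that can lose rare transcripts. The table held the authors' estimated counts per gene, in whole numbers and read as not normalized. Per the file headers, further columns give the authors' own comparison: a mean normalized signal, the log2 fold change with its error, a test score, and p-values before and after adjustment. Only the adjusted p-values are used here, in sentences that name that table. Tools listed by the submitters' processing notes are Salmon 1.4.0, DESeq2 1.34.0, R 4.1.2 and fastp 0.20.0. The sources used here do not give the genome build, annotation or strand. A second deposited table of normalized signal has 6 columns whose names match no sample, and they were not used.

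Rows sharing an Entrez identifier were summed (71 rows removed). Genes kept by filterByExpr (at least 10 counts, total of 15) were scaled with TMM and compared, KO over WT, by edgeR 4.0.16 (quasi-likelihood, R 4.3.3). The model held genotype alone, and p-values were adjusted over all genes by the Benjamini-Hochberg method. The fit was tested on simulated data with planted changes larger than the estimate of any member. That test does not show how often smaller changes would be found. CPM uses TMM-scaled library sizes, and log2 ratios use a prior count of 2. Alternatives were DESeq2 1.42.0, limma 3.58.1, other scalings and filters, covariates and left-out libraries. Between samples with the same replicate number, deviations from the group mean had an r of 0.0093, 0.049 and 0.026. Samples with unlike numbers were not compared, so whether the numbers pair the samples was not settled. They were not used as pairs in the main model, though the library labelled KO1 and WT1 shared sort batch A. Transcript lengths are from GENCODE M21, and promoters and gene order from RefSeq GRCm38.p6, matched by gene.

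The members and lists were chosen with earlier results of these data known. Named genes are the catalytic subunits, Psme1, Psme2 and the class I genes in any case, the 4 members with the smallest p in each direction, the 2 highest and 2 lowest, untested members, those that are no subunits, and from each list the 2 genes with the smallest p. Other genes named were chosen after their values were seen.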

Additional observations from a re-analysis of the deposited data

How the results depend on the processing

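Of the results over the whole set, the count of genes called stayed at 0 in each direction under all 17 alternatives. The count of positive estimates was 30 to 39 genes (56.6% to 73.6%, against 45.4% to 53.4% of all genes). The median estimate of the tested members was 0.081 to 0.21, against -0.076 to 0.057 for all genes, so the background moved as well. The mean log2 ratio at the cutting sites was 0.086 to 0.50. The number of genes with all KO above all WT libraries, 4 as reported, was 7 with library size alone (13.2%, against 9.87% of all genes) and between 4 and 16 when 1 library was left out, with 11.2% to 19.0% of all genes under those settings. It was 16 (30.2%, against 19.0%) without the library labelled KO1 and 11 (20.8%, against 16.9%) without WT3. Replicate numbers were not used as pairs in the main model. With the replicate number as a block 0 genes were called, 35 were positive, the median was 0.16 and the ratio 0.28. Over all genes, 1 to 9 were called under the edgeR and limma settings and 255 by DESeq2, against 3 as reported; DESeq2 called H2-M3 (1.31), Irf9 (0.97) and Nfyb (-1.23).

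Among single genes, 653 of 676 values kept their direction and call, and 20 changed sign, all with an adjusted p above 0.7. With the RNA integrity number as covariate, log2 fold changes were -0.017 for Psmb5, -0.22 for Psme2, -0.00023 for B2m and -0.25 for Tap2. Psmb9 was 0.0040 with no filter and 0.034 with limma-voom. With KO2 and KO3 summed, B2m was -0.035 and Tap2 -0.10, and with batch A as a term Tap2 was -0.015. Leaving out 1 library in turn gave -0.20 to 0.087 for Psmb9, -0.19 to 0.67 for Psme2, -0.11 to 0.20 for B2m, -0.18 to 0.27 for Tap2, -0.44 to 0.029 for Psme3 and -1.93 to 0.059 for Psmg1. The cause of these changes was not tested. Depth limits genes of low counts such as Psmb11, Psmc3ip, Psmg1 and H2-Q2, and a p that misses the threshold does not show that levels were equal.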

Other observations

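Psmc4 lies next to Fcgbp, a gene of goblet cells, in the RefSeq gene order on chromosome 7. Fcgbp had counts of 320, 772 and 641 in the KO libraries and of 0, 1 and 0 in the WT libraries. Psmc4 itself had counts of 788, 758 and 595 in the KO libraries and of 355, 132 and 219 in the WT libraries. These counts are not scaled for depth, which differed between libraries. In CPM, Psmc4 was at 35.1, 46.1 and 37.3 in KO and at 33.5, 13.6 and 12.4 in WT. Within batch A its log2 difference was 0.07. A link between the 2 genes was not tested.

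Of 11 trimming and loading genes, 4 had all KO libraries below all WT libraries and 1 had all above, beside 8.01% and 9.68% of all genes tested. No test of the list was made.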
